A study of Mus musculus with 6 samples.

Results

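Type-2 innate lymphoid cells (ILC2s) are lymphocytes without an antigen receptor, and the RNA examined here comes from genes that T cells use to signal through that receptor. The 9 genes were chosen by name, as the rows of the deposited table whose gene name is Cd3d, Cd3e, Cd3g, Cd247, Lck, Zap70, Lat, Lcp2 or Fyn, and all 9 were found among its 53278 genes. ILC2s were sorted from the visceral adipose tissue of C57BL/6 mice aged 8 weeks that had received 3 injections of 1 µg IL-33 by the intraperitoneal route. The sort kept cells with CD45, ST2 and CD117. It removed T cells by CD3ε and TCRγδ, B cells by CD45R, myeloid cells by CD11b, CD11c and Gr-1, erythroid cells by Ter119, and cells with FcεRI. Both groups were then cultured with the cytokines IL-2 and IL-7 at 10 ng/mL each, for 48 h by the labels, with either DTA-1, an agonistic antibody to the costimulatory receptor GITR, at 5 µg/mL or a rat IgG2b isotype control. A shorter culture is given elsewhere in the study's text. Each group had 3 libraries made from 10 ng of RNA, and no source says whether the libraries came from separate mice, so p-values measure the spread between these libraries, which may be technical.

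In a T cell the receptor chains that bind antigen have no signalling tails. They are joined to the CD3 chains γ, δ and ε (Cd3g, Cd3d, Cd3e) and ζ (Cd247), whose tails carry tyrosine motifs called ITAMs. The Src family kinases Lck and Fyn phosphorylate the ITAMs, the kinase ZAP-70 docks on them, and ZAP-70 phosphorylates the adaptors LAT and SLP-76 (Lcp2), on which phospholipase C-γ and other effectors assemble. Several of these proteins also act downstream of other receptors in lymphocytes without a T cell receptor.

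The libraries held 30569253 to 35131280 counts. For counting error only, a gene at 0 in a library may stand for as many as 3 counts, which is 0.0854 to 0.0981 CPM. Values are normalized counts, that is CPM after TMM scaling of library size. Differential expression means an adjusted p below 0.05 together with 1.5-fold or more. The library labelled DTA-1 replicate 1 stood apart from the other DTA-1 libraries. On the first principal component it lay at −9.56, near the isotype control libraries at −25.53 to −15.58 and away from DTA-1 replicates 2 and 3 at 40.24 and 28.64. On the second component it lay at −45.37, away from the isotype control libraries at 1.16 to 21.07 and from the other DTA-1 libraries at −6.76 and 20.04. The components held 26.2% and 21.3% of the variance. Results are therefore given both with all libraries and with that library left out.

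All 11 ILC2 markers were detected, with Gata3 at 1525 to 1716, Il1rl1 (ST2) at 1022 to 1286, Id2 at 1686 to 2134 and Kit (CD117) at 75.8 to 129 normalized counts over the 6 libraries. The 10 listed T cell markers were divided. Trbc2 and Trbc1, the constant segments of the receptor β chain, had 139 to 196 and 36.6 to 42.5 normalized counts. The other 8 summed to 6.04 to 7.77 normalized counts in isotype control and 2.75 to 7.75 in DTA-1, with Cd8a at 0 in all 6 libraries, Cd8b1 at up to 3 counts, and Trac, the constant segment of the α chain, at 0.368 to 1.76. Lists for other cell types were read in the same way, of which B cells, macrophages and mast cells carry markers that the sort selected against. Of these lists, 3 of 5 NK cell markers (Ncr1, Klrb1c and Klra8) and the B cell markers Ms4a1 and Pax5 were at 0 in every library. The B cell list summed to 16.6 to 17.3 normalized counts in isotype control and 17.2 to 18.2 in DTA-1, nearly all from Cd79b. The NK cell list summed to 0.283 to 0.822 and 0.097 to 1.54. The macrophage list, with C1qb at 0, summed to 2.31 to 4.28 and 1.22 to 4.11. The mast cell list, with none of its genes at 0 throughout, summed to 10.5 to 16.2 in isotype control and 12.0 to 30.5 in DTA-1, where the library labelled replicate 1 had the lowest sum. In bulk RNA, fewer cells of a type and less RNA per cell cannot be told apart.

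The signalling genes were far from equal in level. On a scale of normalized counts per kb of annotated exon, Lcp2 was highest at 162 ± 13.4 (SD over the 6 libraries) and stood at percentile 97.9 of the 13038 tested genes with a matched length. Zap70 followed at 74.3 ± 2.03 (percentile 94.3), Lat at 59.8 ± 2.26 (percentile 92.9) and Fyn at 40.9 ± 1.54 (percentile 89.3). These 4 genes encode the docking kinase, both adaptors and 1 of the Src family kinases. Cd3g was the highest CD3 chain at 13.5 ± 1.42 (percentile 72.0). Below it came Lck at 4.3 ± 0.774 (percentile 48.9) and Cd247 at 3.04 ± 0.256 (percentile 42.8), and lowest were Cd3e at 0.733 ± 0.143 (percentile 22.3) and Cd3d at 0.519 ± 0.134 (percentile 17.7). In this order the ranges of neighbouring genes over the 6 libraries did not overlap, except those of Lck with Cd247 and of Cd3e with Cd3d. With the median length of the protein-coding transcripts in place of the union of exons, Lck and Cd247 changed places and the other ranks were kept. The levels themselves depended on the length used. Fyn rose from 40.9 to 84.0 and Cd3g from 13.5 to 61.4, so that Cd3g lay much closer to Fyn.

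**Figure D1:**
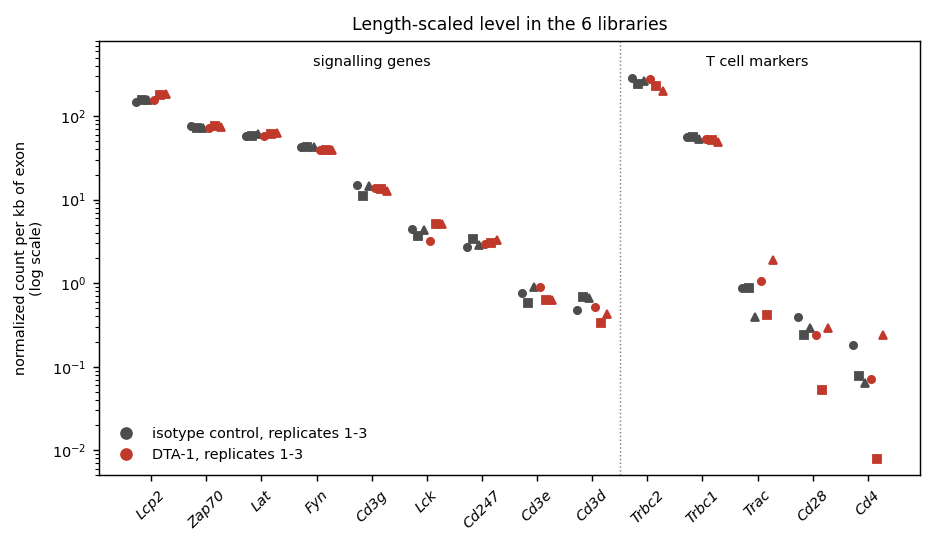
Normalized count per kb of exon (log axis) of the 9 signalling genes and of 5 T cell marker genes in each of the 6 libraries, with circles, squares and triangles for replicates 1, 2 and 3. The adaptors, Zap70 and Fyn lie at 39.1 or more in every library, Cd3e and Cd3d lie below 1, and Trbc2 lies above every signalling gene while Trac lies near Cd3e and Cd3d.

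The 3 linked CD3 genes lie side by side on chromosome 9 of GRCm38, the build of the deposited coordinates. Cd3g spans 44969572 to 44980431 on the minus strand, Cd3d spans 44981786 to 44987339 on the plus strand and starts 1354 bases away from it, and Cd3e spans 44998740 to 45009627 on the minus strand, 11400 bases beyond Cd3d. The per-kb level of Cd3g was 15.2 to 21.5 times that of Cd3e and 16.4 to 40.7 times that of Cd3d in the same library, and the groups overlapped in both ratios. By median transcript length, an alternative chosen after seeing the data, the ratios were 24.8 to 35 and 39.2 to 97.2. Their promoters are shown because these neighbours differ so widely in level, together with the promoter of Lcp2, the gene with the highest level. Each sequence runs from 250 bases before the annotated start to 50 bases after it, is written 5′ to 3′ on the strand of the gene and comes from RefSeq (GRCm38.p6). Capitals mark matches on either strand to letters known to be bound by families of transcription factors. The GATA factors were searched as AGATAA, the RUNX factors as TGTGGT, the ETS factors as AGGAAG, the E proteins as CAGGTG, and the TATA box as TATAAA. None of the matches overlapped another.
Cd3g, chr9:44980382-44980681, minus strand: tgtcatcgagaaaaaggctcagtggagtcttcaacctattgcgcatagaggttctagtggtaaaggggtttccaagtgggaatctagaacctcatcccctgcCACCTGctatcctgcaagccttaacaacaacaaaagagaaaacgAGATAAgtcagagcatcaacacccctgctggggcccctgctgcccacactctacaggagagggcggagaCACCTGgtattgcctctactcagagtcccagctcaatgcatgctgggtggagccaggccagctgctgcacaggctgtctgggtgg
Cd3d, chr9:44981536-44981835, plus strand: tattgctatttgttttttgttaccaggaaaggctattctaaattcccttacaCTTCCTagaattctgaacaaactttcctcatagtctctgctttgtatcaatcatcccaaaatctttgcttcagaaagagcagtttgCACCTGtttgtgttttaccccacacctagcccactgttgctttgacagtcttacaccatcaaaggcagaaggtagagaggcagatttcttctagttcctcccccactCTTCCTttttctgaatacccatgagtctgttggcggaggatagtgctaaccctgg
Cd3e, chr9:45009562-45009861, minus strand: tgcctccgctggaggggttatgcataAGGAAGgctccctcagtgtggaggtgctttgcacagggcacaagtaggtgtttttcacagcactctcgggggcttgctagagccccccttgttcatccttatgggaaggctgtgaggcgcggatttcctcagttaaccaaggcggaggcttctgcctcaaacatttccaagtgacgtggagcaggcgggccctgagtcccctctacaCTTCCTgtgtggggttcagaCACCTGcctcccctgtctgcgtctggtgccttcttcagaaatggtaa
Lcp2, chr11:34046678-34046977, plus strand: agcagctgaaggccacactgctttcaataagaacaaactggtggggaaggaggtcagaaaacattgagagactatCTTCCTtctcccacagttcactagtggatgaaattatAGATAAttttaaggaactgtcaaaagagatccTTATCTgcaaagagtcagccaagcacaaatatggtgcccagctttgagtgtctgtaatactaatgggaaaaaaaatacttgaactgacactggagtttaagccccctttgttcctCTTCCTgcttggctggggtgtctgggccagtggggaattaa
RefSeq promoters were found for 9 of the 9 genes, 12 in all, since Lck and Zap70 have more than 1. AGATAA was present in 2 of the 12 promoters (those of Cd3g and Lcp2), against 11.2% of the 32851 promoters in the table. CAGGTG was present in 8 of the 12 (Cd3d, Cd3e, Cd3g, Cd247, Lck and Zap70, against 20.2%) and AGGAAG in 9 of the 12 (all genes but Cd3g and Fyn, against 35.4%). TGTGGT was present in 3 of the 12 (Lck, Zap70 and Lat, against 16.8%) and TATAAA in 0 (against 13.6%). Promoters of 1 gene are not independent of each other. A match describes the letters in this window and is no evidence of binding, and the lack of one says nothing of the factor.

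The comparison of DTA-1 with isotype control asked whether engaging GITR changed the RNA of these genes. None of the 9 was differentially expressed by edgeR's quasi-likelihood test (0 genes, against 0.0% of the 14361 genes tested; DESeq2's Wald test also called 0 of the 9, and 0.152% of the genes it tested). All 9 passed the filter on low counts. Their median log2 fold change was 0.02, against −0.01 over all genes tested, with 5 genes higher and 4 lower in mean, of which Zap70 turned from 0.02 to −0.02 when total counts replaced TMM. At an unadjusted p under 0.05 there was 1 gene, Lcp2, where 7.22% of all genes tested reached that level, and none of the 9 did so with 1.5-fold (2.35% of all genes). In 2 of the 9 genes (22.2%, against 11.3% of all genes tested) the groups did not overlap. For 7 of the 9 genes (77.8%, against 58.9% of all genes tested) the 95% interval of the change lay inside 1.5-fold in both directions, and the exceptions were Cd3d and Cd3e. Intervals were wider for genes with few counts, such as Cd3d and Cd3e, and the share over all genes was not matched for count level. Without the library labelled DTA-1 replicate 1 again 0 of the 9 were called, against 0.744% of all genes tested. There Lcp2 was again the 1 gene at an unadjusted p under 0.05, against 14.0% of all genes tested, and the median log2 fold change was 0.04.

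**Figure D2:**
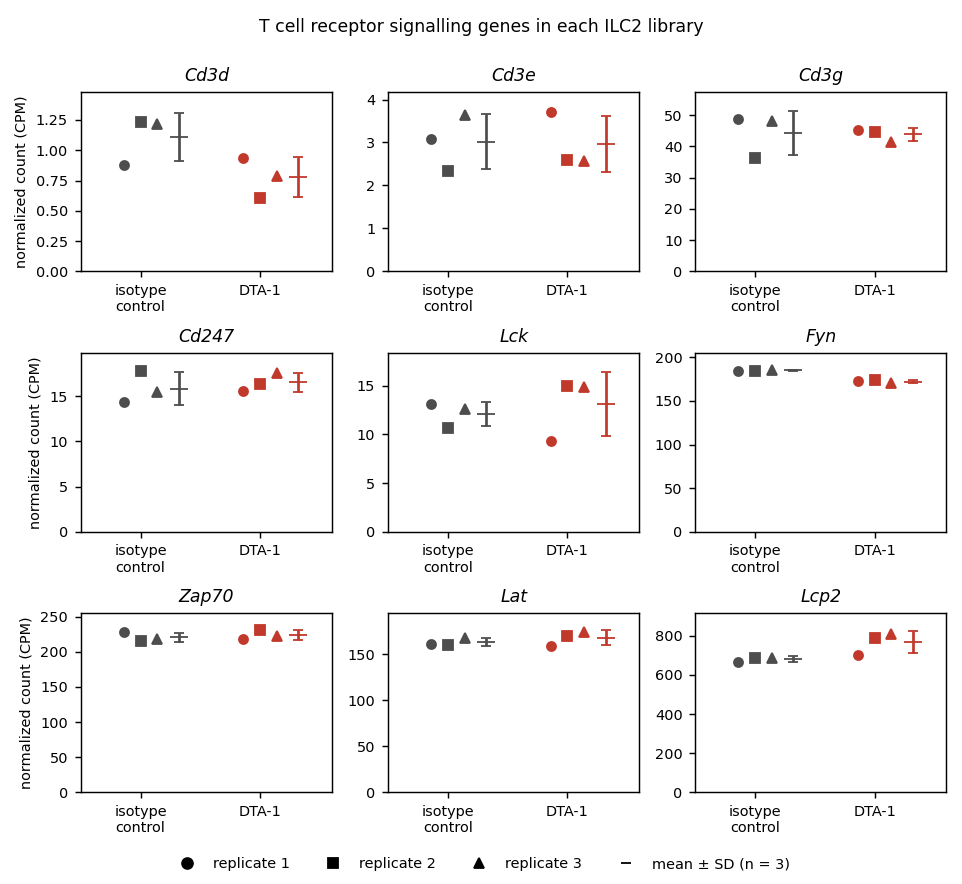
Normalized count (CPM, linear axis from 0) of each signalling gene in the 3 isotype control libraries (grey) and the 3 DTA-1 libraries (red), with the mean and SD of each group beside the points. The groups overlap in 7 of the 9 genes, while all DTA-1 libraries lie above isotype control for Lcp2 and below it for Fyn.

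Cd3e encodes the chain whose surface protein the lineage gate selected against. In replicates 1, 2 and 3 the isotype control libraries had 3.08, 2.34 and 3.63 normalized counts of Cd3e and the DTA-1 libraries 3.72, 2.59 and 2.57, from 81 to 128 counts per library. The groups overlapped, with the lowest library in isotype control and the highest in DTA-1, and the change on the log2 scale was −0.03 (standard error 0.29, 95% interval −0.67 to 0.61, edgeR adjusted p = 0.992). Cd3d was the lowest of the 9 genes, with raw counts of 31, 43 and 43 under isotype control and of 29, 19 and 25 under DTA-1. These are 0.876, 1.23 and 1.22 against 0.938, 0.609 and 0.784 normalized counts, and DTA-1 replicate 1 lay within the isotype control range. The change in Cd3d was −0.51 on the log2 scale (standard error 0.43, 95% interval −1.47 to 0.45, edgeR adjusted p = 0.835). It was −0.67 without DTA-1 replicate 1 and −0.36 without DTA-1 replicate 2. The intervals of Cd3d and Cd3e both include a change of 1.5-fold.

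Cd3g carried most of the CD3 signal, with 62.8% to 72.7% of the summed normalized counts of the 4 CD3 chains in each library. The isotype control libraries had 48.6, 36.2 and 48.2 normalized counts of Cd3g and the DTA-1 libraries 45.3, 44.6 and 41.5. The isotype control range enclosed all DTA-1 libraries, and the change was −0.02 on the log2 scale (standard error 0.12, 95% interval −0.28 to 0.25, edgeR adjusted p = 0.985). Cd247 (chromosome 1, 165788681 to 165877277) had 14.3, 17.8 and 15.4 normalized counts under isotype control and 15.6, 16.3 and 17.6 under DTA-1. The groups again overlapped, with a change of 0.06 on the log2 scale (standard error 0.14, 95% interval −0.24 to 0.36, edgeR adjusted p = 0.949). The value of Cd247 is uncertain. Exons of Pou2f1, a broadly expressed transcription factor gene on the opposite strand, cover 56.4% of its annotated exon bases. Pou2f1 had 494 to 662 counts per library, near the 483 to 626 counts of Cd247. Without strand in the counting, reads that lie within the shared exon bases cannot be told apart. No other gene of the table overlapped the exons of a signalling gene by more than 6.3%, that being a gene with at most 9 counts over Lcp2.

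Of the Src family kinases, Fyn (chromosome 10, 39368855 to 39565381) was the more abundant, at 7.68 to 12.5 times the per-kb level of Lck (chromosome 4, 129548344 to 129573641) in the same library. By median transcript length, an alternative chosen after seeing the data, the ratio was 11.3 to 18.4. The isotype control libraries had 184, 184 and 185 normalized counts of Fyn and the DTA-1 libraries 173, 174 and 171. Every DTA-1 library was below every isotype control library, as for 6.03% of all genes tested. The change in Fyn was −0.10 on the log2 scale (standard error 0.06, 95% interval −0.22 to 0.03, edgeR adjusted p = 0.746), and it stayed at −0.10 without DTA-1 replicate 1. For Lck the isotype control libraries had 13.1, 10.7 and 12.6 normalized counts and the DTA-1 libraries 9.28, 15.0 and 14.9, so that the library labelled DTA-1 replicate 1 was the lowest of the 6 and the other DTA-1 libraries the highest. The change in Lck was 0.11 on the log2 scale (standard error 0.20, 95% interval −0.33 to 0.54, edgeR adjusted p = 0.941). Without that library it was 0.30 (standard error 0.15, 95% interval −0.05 to 0.65, edgeR adjusted p = 0.431, the lowest over the alternatives).

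Zap70 (chromosome 1, 36761798 to 36782818), the kinase that docks on phosphorylated ITAMs, had 228, 215 and 218 normalized counts under isotype control and 218, 231 and 223 under DTA-1. The groups overlapped, with a change of 0.02 on the log2 scale (standard error 0.06, 95% interval −0.11 to 0.15, edgeR adjusted p = 0.959) and of 0.04 without DTA-1 replicate 1. Syk, the other kinase of this family and named here after its values were seen, was much lower, at 7.98 to 15.8 normalized counts. The per-kb level of Zap70 was 43.1 to 84.4 times that of Syk in the same library. This ratio depends on the exon lengths used, 2.99 kb for Zap70 and 9.36 kb for Syk.

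Lat (chromosome 7, 126363824 to 126369570), the membrane adaptor, had 161, 160 and 168 normalized counts under isotype control and 159, 170 and 174 under DTA-1. The highest and the lowest of the 6 were both DTA-1 libraries, with a change of 0.04 on the log2 scale (standard error 0.06, 95% interval −0.10 to 0.18, edgeR adjusted p = 0.930). Lcp2 (chromosome 11, 34046920 to 34092295), the cytosolic adaptor SLP-76, had 666, 689 and 688 normalized counts under isotype control and 702, 789 and 809 under DTA-1. Each DTA-1 library was above each isotype control library, as for 5.26% of all genes tested, and DTA-1 replicate 1 was the closest to isotype control. Lcp2 was 1.13-fold higher in mean, 0.17 on the log2 scale (standard error 0.07, 95% interval 0.02 to 0.32, unadjusted p = 0.0263, edgeR adjusted p = 0.655). Without that library it was 0.23 (standard error 0.05, 95% interval 0.12 to 0.34, edgeR adjusted p = 0.0577), short of the adjusted threshold and of 1.5-fold, and over the other alternatives the adjusted p lay between 0.46 and 0.999.

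**Figure D3:**
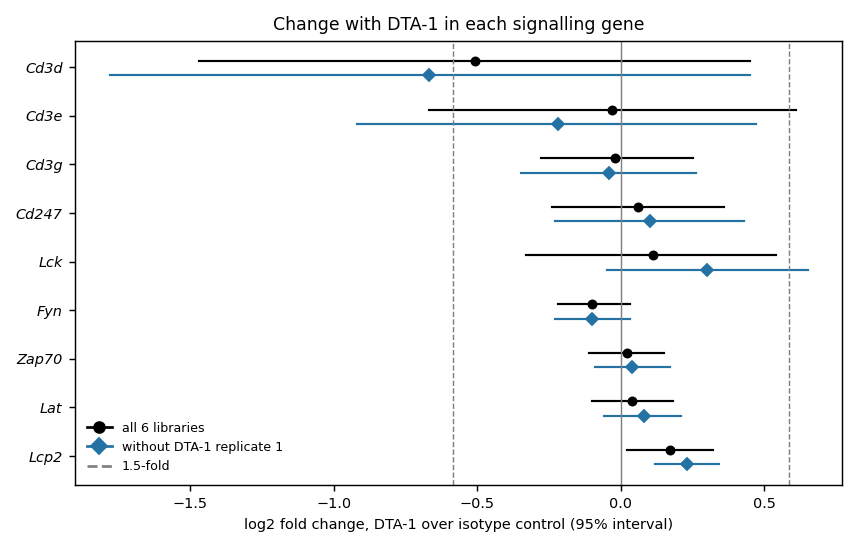
Log2 fold change (DTA-1 over isotype control) with its 95% interval for each signalling gene, with all 6 libraries (black circles) and after DTA-1 replicate 1 was removed (blue diamonds), with dashed lines at 1.5-fold. The intervals of Fyn, Zap70, Lat and Lcp2 are narrow and inside the lines, while those of Cd3d and Cd3e cross a line in both fits and that of Lck crosses the upper line after the removal.

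A wider list of 54 other genes of the pathway was read in the same fit. Of these, 49 passed the filter on low counts. The remaining 5 (Sh2d1a, Trat1, Cd5, Cd8a and Cd8b1) had at most 21 counts in any library, and all are genes typical of T cells. By edgeR 0 of the 49 were differentially expressed, against 0.0% of all genes tested. The median log2 fold change of the 49 was −0.02, against −0.01 over all genes tested, with 23 higher in mean and 26 lower. In 38 of the 49 (77.6%, against 58.9% of all genes tested) the 95% interval lay inside 1.5-fold. Here too the share over all genes was not matched for count level. The groups did not overlap for 4 of the 49 (8.16%, against 11.3% of all genes tested). Without DTA-1 replicate 1 again 0 were called, against 0.744% of all genes tested, and 11 of the 49 were at an unadjusted p under 0.05 (6 higher and 5 lower), against 14.0% of all genes tested.

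At an unadjusted p under 0.05 there were 4 of the 49 genes, against 7.22% of all genes tested, with 3 higher and 1 lower. Nck2, an SH2 and SH3 adaptor that binds SLP-76, had 187, 178 and 186 normalized counts under isotype control and 174, 147 and 148 under DTA-1. All DTA-1 libraries were below isotype control, and the change in Nck2 was −0.23 on the log2 scale (standard error 0.08, edgeR adjusted p = 0.627). Without DTA-1 replicate 1 the change was −0.32 with edgeR (adjusted p = 0.0376, and up to 0.999 under other alternatives), short of 1.5-fold, and Nck2 was the 1 gene of the list with an adjusted p under 0.05 there, against 1.7% of all genes tested. Sit1, an inhibitory transmembrane adaptor, had 14.3, 11.3 and 13.3 against 16.3, 21.3 and 13.7, with overlapping groups and a change of 0.40 on the log2 scale (standard error 0.18, edgeR adjusted p = 0.688).

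Fcer1g encodes the ITAM chain of the Fc receptors and can take the place of CD3ζ. Of the 49 genes tested, Fcer1g was the 1 gene past 1.5-fold at an unadjusted p under 0.05, against 2.35% of all genes tested. The isotype control libraries had 2.06, 1.6 and 1.7 normalized counts of Fcer1g and the DTA-1 libraries 2.68, 3.2 and 3.33. All DTA-1 libraries were above isotype control, with a change of 0.78 on the log2 scale (standard error 0.29, 95% interval 0.15 to 1.41, edgeR adjusted p = 0.635) and 0.87 without DTA-1 replicate 1 (edgeR adjusted p = 0.237). Mast cells also express Fcer1g. The mast cell markers summed to 10.5 to 16.2 normalized counts under isotype control. With DTA-1 they summed to 12.0 (replicate 1), 30.5 (replicate 2) and 21.6 (replicate 3). Replicates 2 and 3 thus exceeded every isotype control library both in this sum and in Fcer1g. In replicate 1 the sum was inside the isotype control range, and Fcer1g had 83 counts, where isotype control libraries had 56 to 73. Whether mast cells had a part in the change of Fcer1g was not tested. Hcst (DAP10), a signalling chain of NKG2D without an ITAM, had 50.5 to 74.0 normalized counts and a change of −0.12 on the log2 scale.

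By role, the highest and lowest log2 fold changes were 0.31 (Txk) and −0.08 (Tec) among 5 kinases and 0.40 (Sit1) and −0.44 (Themis) among 16 adaptors tested. All 10 effectors had 95% intervals inside 1.5-fold, against 58.9% of all genes tested, a share not matched for count level. The lowest effector was at −0.15 (Sos1). Among 12 inhibitors tested the highest and lowest changes were 1.00 (Cd6) and −0.15 (Ubash3a). Among 3 coreceptor and costimulation genes tested they were 0.70 (Cd2) and −0.68 (Cd28). The wide values were those of genes with few counts. Cd6 had 0, 2.57 and 0.964 normalized counts under isotype control and 2.3, 1.6 and 3.17 under DTA-1, with a standard error of 0.90, and Cd28 had 2.43, 1.45 and 1.79 against 1.46, 0.32 and 1.76, with a standard error of 0.53. Cd2 had 1.44, 0.969 and 2.41 against 2.75, 3.11 and 2.01. The edgeR adjusted p was 0.847 for Cd6, 0.817 for Cd28 and 0.738 for Cd2.

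**Figure D4:**
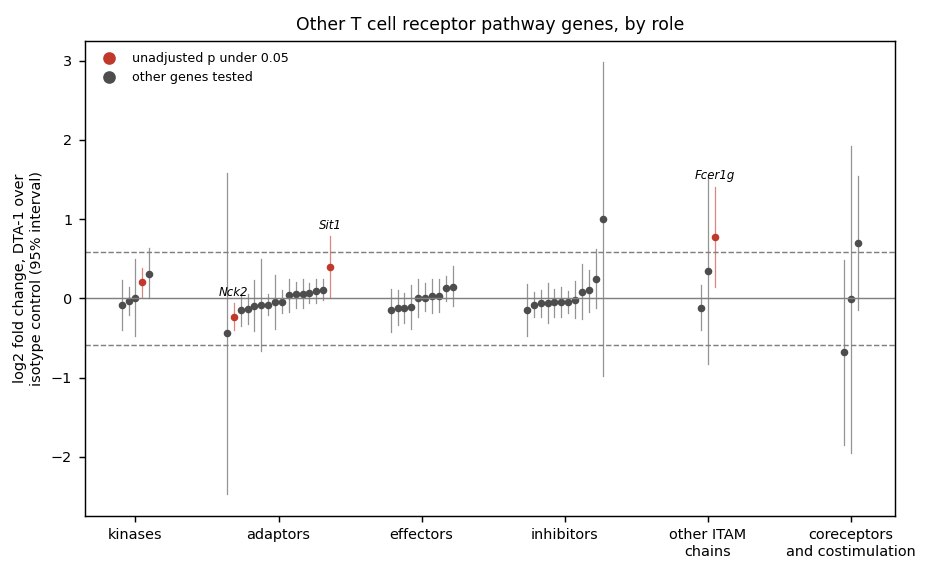
Log2 fold change (DTA-1 over isotype control) with its 95% interval for the 49 tested genes of the wider list, grouped by role, with dashed lines at 1.5-fold and the 4 genes at an unadjusted p under 0.05 in red, of which Nck2, Sit1 and Fcer1g are labelled. Most points lie close to 0, and the long intervals belong to genes with few counts such as Themis, Cd6 and Cd28.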

How the data were processed

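ILC2 RNA was sequenced in 3 isotype control and 3 DTA-1 libraries on a NextSeq 500. The authors deposited expected counts per gene, which are estimates made with Partek software, may be fractional and are not normalized. The submitters' processing notes also name bcl2fastq 2.17.1.14, STAR 2.5.3a and the build mm10. Whether strand was used, how reads in overlapping genes were assigned and the annotation release are not given in the sources used here. Of the values, 79.7% were whole numbers within 1e-06.

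These were rounded before testing. Genes with few counts were removed by filterByExpr, which left 14361, with a common dispersion of 0.0256. The groups were compared with all 6 libraries and no covariate by edgeR 4.0.16 in R 4.3.3 (TMM, robust quasi-likelihood F test, Benjamini-Hochberg adjustment over all genes tested). The standard error is the size of the log2 fold change over the square root of F, and 95% intervals are given. DESeq2 1.42.0, limma 3.58.1, other scalings and filters, a replicate block and the removal of each library in turn were the alternatives. A simulation of this comparison gave 200 of 14284 genes a 2-fold change. The test found 171 of the 200 (85.5%) and also called 10 genes that had been left alone. The simulation gave every gene the common dispersion of 0.0256 and set no library apart beyond its depth. Differences in spread between genes and the position of DTA-1 replicate 1 were not simulated. The 85.5% is therefore not the power of the real comparison. There 0 genes were called with all 6 libraries and 111 without DTA-1 replicate 1.

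Lengths are unions of exons in GENCODE M21 for genes with the same start and end as the table, whose end column is 1 base past the last base. The ends printed are the last base. The 9 genes and the lists were chosen with earlier results of these data known. The genes named are the 9 and, of the wider list, the highest and lowest in each role, those at an unadjusted p under 0.05 and those called, together with the cell type markers, genes that overlap the 9 and the 5 genes of most similar pattern. Syk and the genes named where a count of calls is 5 or fewer over all genes were chosen after their values were seen. Some genes that this rule names are not reported here. Plots were made in Python 3.11.15 with matplotlib 3.10.9, pandas 2.3.3 and numpy 2.4.6.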

Additional observations from a re-analysis of the deposited data

How the results depend on the processing

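None of the 13 alternatives brought any of the 9 genes past the threshold, and the direction was kept in 109 of 117 values. When each library was left out in turn, the change on the log2 scale ran from −0.22 to 0.13 for Cd3e, from −0.14 to 0.06 for Cd3g and to 0.15 for Cd247. The reversed values were Cd3e at 0.13 without isotype control replicate 3 and 0.07 without DTA-1 replicate 2 or 3, Cd3g at 0.06, 0.05 and 0.02 without isotype control replicate 1, isotype control replicate 3 or DTA-1 replicate 3, Cd247 at −0.0029 without isotype control replicate 1, and Zap70 at −0.02 with total counts in place of TMM. The scalings moved the median of all genes by at most 0.037 on the log2 scale.

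Over all genes the count of 0 rose to 25 with DESeq2's Wald test, to 2 without the filter on low counts (Ctgf and Pdgfra, both lower) and to 337 at the unadjusted p with 1.5-fold. It ranged from 0 to 111 when each library was left out, with 111 without DTA-1 replicate 1, and was 253 there with no fold limit, an alternative chosen after seeing the data. For the wider list it was 1 (Fcer1g) at the unadjusted p with 1.5-fold and 1 (Nck2) without DTA-1 replicate 1 and with no fold limit. With the replicate number as a block it was 1 over all genes (Chil3, higher) and 0 for both lists. Deviations of libraries with the same number correlated at −0.007, −0.003 and 0.015, and those of libraries with different numbers at −0.014 to 0.016. No pairing by number was seen in these values. Whether libraries of the same number shared mice or a sort is not stated in the sources. The cause of these changes was not tested. Cd3d and Cd3e had the fewest counts of the 9 genes, at 19 to 43 and 81 to 128 per library.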

Other observations

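The genes whose log2 normalized count followed that of Cd3e most closely over the 6 libraries, among 8723 genes with a mean of at least 10 normalized counts, were Fam32a (Pearson r = 0.994), Slc25a28 (0.992), Klf9 (0.987), Ash1l (0.978) and Trmt1 (0.971). For the 4 CD3 chains summed, which had 57.6 to 68.4 normalized counts in isotype control and 62.5 to 65.6 in DTA-1, they were Zcchc17 (0.993), Mpv17 (0.991), Sars (0.98), Tmem128 (0.979) and Mrpl10 (0.976). With 6 points, 64 genes reached an r of 0.9 for Cd3e and 50 for the sum, so these values are a description of 6 libraries and no test was made.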
